A study of Mus musculus with 24 samples.

Results

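The genes described here are 40 genes of DNA replication and the cell cycle, chosen by name from the liver gene count table, which lists 22429 genes. All 40 were in the table, and 39 passed the filter on low counts that left 12211 genes for testing; the exception was E2f7. By role they fall into 13 replication genes (Mcm2, Mcm3, Mcm4, Mcm5, Mcm6, Mcm7, Pcna, Lig1, Gins1, Gins2, Gmnn, Cdt1 and Cdc6), 5 genes of nucleotide supply (Rrm1, Rrm2, Tyms, Tk1 and Dut) and 7 genes that control the passage from G1 into S phase (E2f1, E2f7, E2f8, Ccnd1, Ccne1, Ccne2 and Uhrf1). The remaining 15 are genes of mitosis (Mki67, Top2a, Ccna2, Ccnb1, Ccnb2, Cdk1, Cdc20, Aurka, Aurkb, Plk1, Birc5, Tpx2, Ube2c, Kif11 and Stmn1). Their footprints were counted in ribosome profiling of 24 livers of male F1 hybrid C57BL6J/FVBN mice, an assay that sequences the mRNA fragments protected by ribosomes and so reads how much of each mRNA is being translated. The 6 groups of 4 livers were Ercc1 d/- mice of 16 weeks under 30% dietary restriction, Ercc1 d/- mice fed ad libitum of 16 weeks and of 7 weeks, Ercc1 +/+ mice of 16 weeks under 30% restriction, and Ercc1 +/+ mice fed ad libitum of 104 weeks and of 16 weeks. Ercc1 encodes a subunit of a DNA repair endonuclease, and the series calls the d/- animals progeroid. They are called mutant below, the +/+ animals wild-type, and ad libitum feeding is called fed. All animals were housed singly. Restriction began at 7 weeks with a 10% step and reached 30% from 9 weeks. On the day of sacrifice no group received food before collection. Sequencing of mRNA from the same livers was not used here, so a change in footprints is not split into mRNA level and translation per mRNA. The samples are labelled as numbered livers of 1 group, with no statement on litters. P-values measure the spread between these samples, which may be technical in part.

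As background, cells copy their DNA once per cycle. Cdc6 and Cdt1 load the ring of Mcm2 to Mcm7 onto replication origins in G1, geminin (Gmnn) blocks a renewed loading, the GINS complex turns the ring into the running helicase, and Pcna and Lig1 serve synthesis and joining of the new strands. Cyclin D1 (Ccnd1) and cyclins E (Ccne1, Ccne2) release E2F factors, which switch on many replication genes, while E2f7 and E2f8 are repressors of the same family. Mitotic genes are switched on later, through the CHR element in their promoters, and drive chromosome condensation, spindle building and exit. Adult hepatocytes divide rarely and are mostly polyploid, and Kupffer cells and other non-parenchymal cells also divide in liver.

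The libraries held 13366558 to 27084259 counts, and the 40 genes together took 0.0109% to 0.0396% of them. Levels are counts scaled to a fixed library size after correction for library composition (CPM). A level of 3 counts, the upper limit that a count of 0 allows, corresponds to 0.0981 to 0.248 CPM depending on the library; such limits cover counting error only. The targeted gene matched the labels in every library, with Ercc1 at 0.0502 to 0.821 CPM in the 12 mutant livers, against 1.92 to 4.86 CPM in the 12 wild-type livers. The 8 hepatocyte markers were present in every group, with summed levels of 95000 to 253000 CPM, as the tissue label says. Genes are not compared with each other by level, since footprints were not set per coding length.

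Promoters are shown first because the replication and mitosis genes differ in the motifs they hold. The RefSeq promoter table (GRCm38.p6) held 34 promoters of 30 of the 40 genes, each from 250 bases before to 50 bases after an annotated start. The E2F motif was searched as TTTCCCGC, TTTCGCGC, TTTGCCGC and TTTGGCGC, the CHR as TTTGAA and the CCAAT box as CCAAT, all on both strands; E2F matches can overlap each other. An E2F motif stood in 7 of 12 promoters of replication genes (7 of 9 genes), 1 of 11 promoters of mitosis genes, 2 of 6 of G1/S control genes and 0 of 5 of nucleotide supply genes, against 2.26% of all 32851 promoters of the table. The CHR stood in 9 of 11 promoters of mitosis genes, 1 of 12 of replication genes (Mcm2), 1 of 6 of G1/S control genes (E2f8) and 0 of 5 of nucleotide supply genes, against 17.9% of all promoters. CCAAT boxes stood in 10 of 11 mitosis promoters and 7 of 12 replication promoters, against 37.4% of all. A match is a description of letters, not a bound site. The stretches below show 2 replication genes that fell under restriction in both genotypes and 4 mitosis genes, from 200 bases before the promoter's start to the base before the annotated gene, 5′ to 3′ on the gene's strand, with the E2F motif in capitals in the first 2 and the CHR in capitals in the others.
Mcm5, chr8:75109309-75109467, plus strand: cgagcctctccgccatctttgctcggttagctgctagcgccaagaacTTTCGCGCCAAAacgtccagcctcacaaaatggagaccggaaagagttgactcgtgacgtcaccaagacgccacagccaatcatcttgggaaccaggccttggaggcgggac
Mcm6, chr1:128359706-128359905, minus strand: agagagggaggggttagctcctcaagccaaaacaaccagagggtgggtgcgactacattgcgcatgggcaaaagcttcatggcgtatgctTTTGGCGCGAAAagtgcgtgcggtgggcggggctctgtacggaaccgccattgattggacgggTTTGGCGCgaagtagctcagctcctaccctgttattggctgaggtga
Mki67, chr7:135716451-135716579, minus strand: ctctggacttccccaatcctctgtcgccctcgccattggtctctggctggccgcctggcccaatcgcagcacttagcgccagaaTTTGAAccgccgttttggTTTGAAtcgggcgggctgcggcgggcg
Top2a, chr11:99024200-99024389, minus strand: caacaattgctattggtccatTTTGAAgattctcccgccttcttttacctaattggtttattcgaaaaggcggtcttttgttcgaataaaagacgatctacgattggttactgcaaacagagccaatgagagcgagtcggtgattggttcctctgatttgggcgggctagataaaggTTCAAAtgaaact
Cdk1, chr10:69352913-69353112, minus strand: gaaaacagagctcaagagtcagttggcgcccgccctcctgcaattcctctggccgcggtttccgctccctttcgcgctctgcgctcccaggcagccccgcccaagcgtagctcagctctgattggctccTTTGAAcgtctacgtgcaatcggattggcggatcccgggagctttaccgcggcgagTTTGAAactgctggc
Ube2c, chr2:164769729-164769928, plus strand: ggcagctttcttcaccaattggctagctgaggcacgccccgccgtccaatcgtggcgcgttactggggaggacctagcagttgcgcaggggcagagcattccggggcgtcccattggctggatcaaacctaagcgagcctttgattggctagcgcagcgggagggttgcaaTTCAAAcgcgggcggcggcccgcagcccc
In these stretches Mcm5 and Mcm6 each hold a pair of overlapping E2F matches that read the motif on both strands, and Mcm6 a further match nearer to the gene. Mki67, Top2a and Cdk1 hold 2 CHR matches each and Ube2c 1, with TTCAAA marking a match on the other strand. Cdk1 is also the 1 mitosis gene with an E2F match, TTTCGCGC, which stands in its stretch in lower case.

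**Figure D1:**
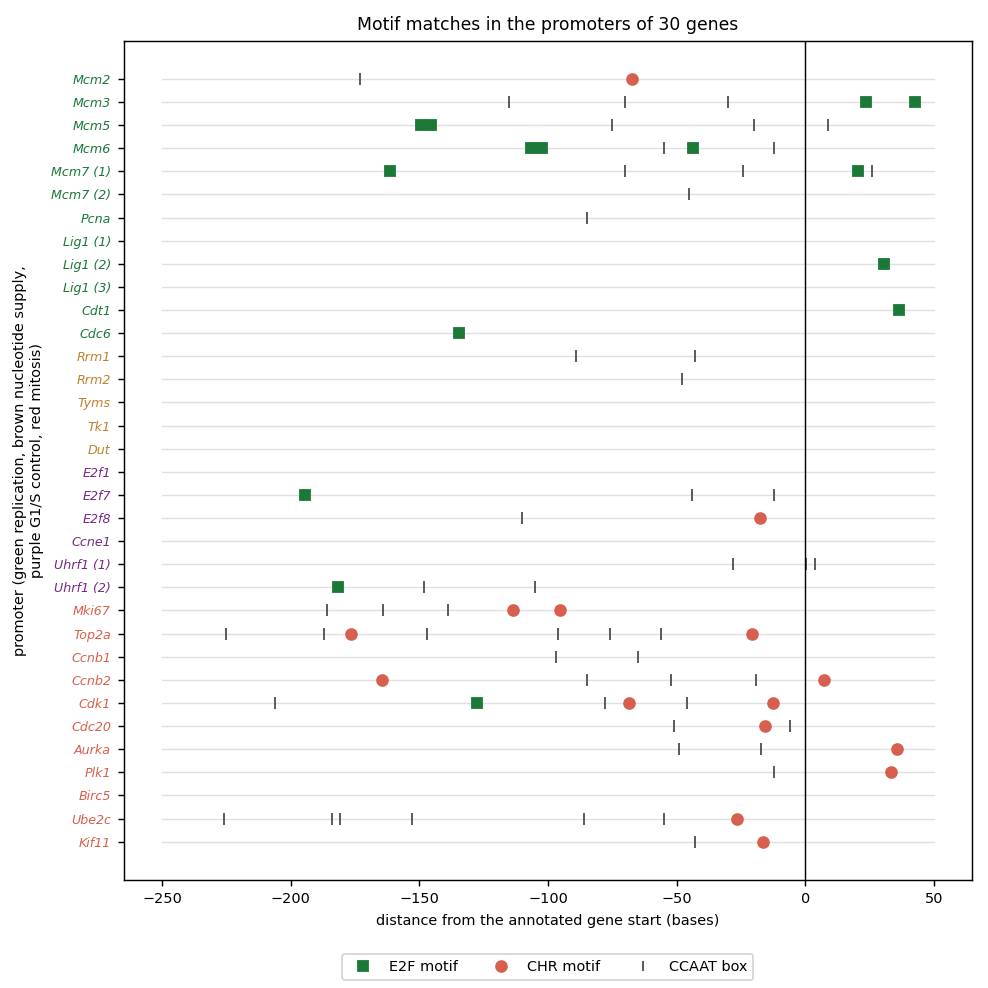
Motif matches in the 34 promoters of 30 genes, with the distance from the annotated gene start in bases on the x axis and 1 promoter per line; squares are E2F motifs, circles CHR motifs and ticks CCAAT boxes. The squares gather on the replication genes (7 of 12 promoters) and the circles on the mitosis genes (9 of 11 promoters).

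Across the groups the role classes did not move as one. Fed mutant livers of 16 weeks had the highest mean for 11 of 13 replication genes. Fed mutant livers of 7 weeks had the highest mean for 13 of 15 mitosis genes. These are counts of means without a test. Between these 2 fed mutant groups none of the 39 genes passed (lowest adjusted p = 0.392 by edgeR). Restricted wild-type livers had the lowest mean for 10 of 13 replication genes, and the lowest means of the mitosis genes were divided between restricted wild-type livers (8 genes) and wild-type livers of 104 weeks (7 genes). Summed over the 15 mitosis genes, footprints were at 22.9 to 26.7 CPM in restricted mutant livers, 24.7 to 35.7 CPM in fed mutant livers of 16 weeks and 23.5 to 54.4 CPM in fed mutant livers of 7 weeks. The same sum was 6.27 to 12.8 CPM in restricted wild-type livers, 4.9 to 9.71 CPM in wild-type livers of 104 weeks and 17.1 to 30.9 CPM in fed wild-type livers of 16 weeks. Only the restricted and the old wild-type livers lay apart from the other groups in this sum. The 13 replication genes summed to 66.7 to 70.9 CPM in restricted mutant livers, 96 to 165 CPM in fed mutant livers of 16 weeks and 90.7 to 159 CPM in fed mutant livers of 7 weeks. Their sum was 41.2 to 73.2 CPM in restricted wild-type livers, 65.3 to 71.6 CPM in wild-type livers of 104 weeks and 62.3 to 146 CPM in fed wild-type livers of 16 weeks. The mean of these sums was lowest in restricted wild-type livers. The ranges of all 3 restricted or old groups overlapped each other and the wide range of the fed wild-type livers of 16 weeks. In bulk liver, fewer cells in cycle and less RNA per cell cannot be told apart.

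**Figure D2:**
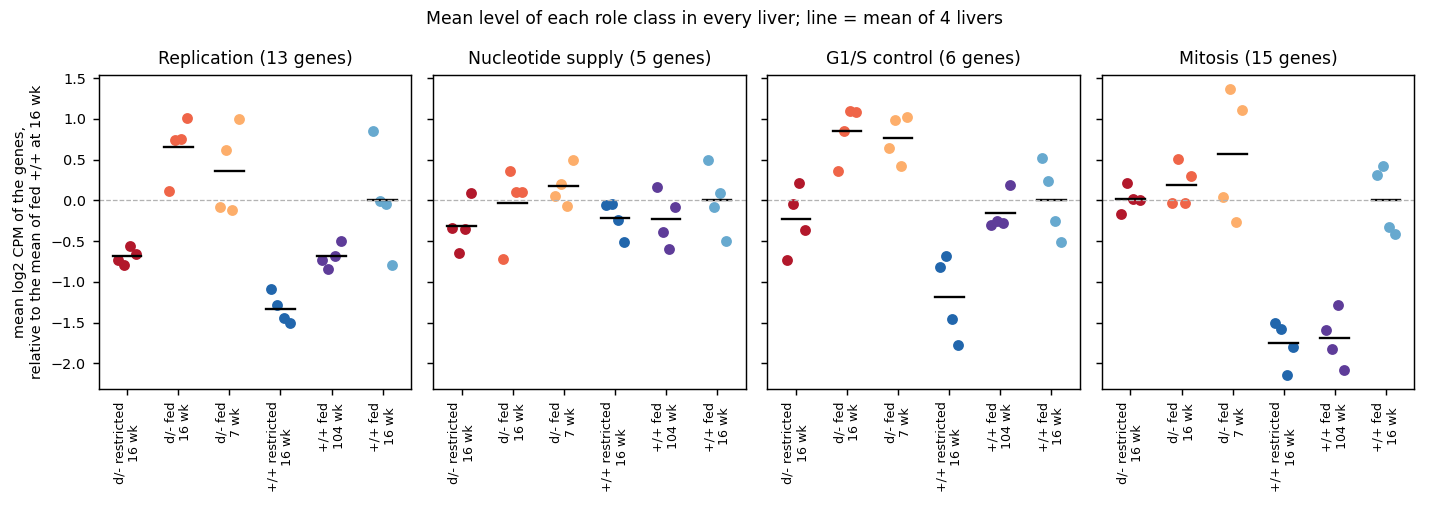
Mean log2 CPM of the genes of each role class in every liver, relative to the mean of the fed wild-type (+/+) livers of 16 weeks; points are livers and lines the means of 4 livers. The mitosis panel shows restricted and 104-week wild-type livers between -2.14 and -1.28, below every other liver, while the restricted mutant (d/-) livers lie between -0.162 and 0.212.

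Levels differed between livers of 1 group. In the fed wild-type livers of 16 weeks, replicate 1 was highest for 25 and replicate 4 lowest for 29 of the 39 tested genes. In the fed mutant livers of 7 weeks, replicates 2 and 4 were highest for 14 and 24 of 39, and replicate 3 was lowest for 24. In the fed mutant livers of 16 weeks, replicate 1 was lowest for 30 of 39. Among restricted and old livers no replicate was highest for more than 14 of 39. Replicates 3 and 4 of the restricted wild-type livers were lowest for 15 and 16 of 39, and replicate 1 of the restricted mutant livers for 15. Each fed group of 7 or 16 weeks therefore holds livers with generally high and generally low levels of these genes, and the comparisons below with fed wild-type livers of 16 weeks share those 4 libraries.

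Dietary restriction of wild-type mice lowered replication and mitosis genes together. Of the 39 tested genes, 19 fell and none rose at an adjusted p under 0.05 in restricted against fed wild-type livers of 16 weeks (edgeR's quasi-likelihood test with Benjamini-Hochberg adjustment over all genes; at an unadjusted p under 0.05, 27 were lower and none higher, and DESeq2 called 22). Over all genes tested, 12.1% changed in either direction, and 3271 of 12211 had an unadjusted p under 0.05. The 19 were 7 of 13 replication genes (Mcm2 to Mcm6, Gins1 and Gins2), 1 of 6 G1/S control genes (E2f1) and 11 of 15 mitosis genes (Mki67, Top2a, Ccnb1, Ccnb2, Cdk1, Cdc20, Aurka, Plk1, Birc5, Tpx2 and Ube2c). The median log2 change was -1.39 over the replication genes and -2.24 over the mitosis genes, against 0.0182 over all genes tested.

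Mcm5, a subunit of the helicase ring, was at 0.524, 0.433, 0.839 and 0.425 CPM in restricted wild-type livers, against 13.7, 7.47, 6.16 and 3.14 CPM in fed wild-type livers. Every restricted liver was below every fed one, and the log2 change was -3.76 ± 0.44 (SE, adjusted p = 2.98e-06 by edgeR). Its ring partner Mcm6 was at 1.37, 1.52, 0.751 and 0.849 CPM in restricted wild-type livers, against 18, 9.68, 8.72 and 3.06 CPM in fed wild-type livers, a log2 change of -3.14 ± 0.42 (SE, adjusted p = 2.19e-05 by edgeR). Mcm2 was at 3.08, 1.62, 1.37 and 2.18 CPM in restricted wild-type livers, against 13.5, 7.35, 5.68 and 4.22 CPM in fed wild-type livers. Its groups did not overlap either, and its log2 change was -1.90 ± 0.39 (SE, adjusted p = 0.00231 by edgeR). Mcm7, of the same ring, was at 13.3, 14.1, 9.1 and 6.67 CPM in restricted wild-type livers, against 18.8, 12.1, 14.1 and 8.85 CPM in fed wild-type livers, groups that overlapped (log2 change -0.32 ± 0.23, SE, adjusted p = 0.404 by edgeR).

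Gins2, a subunit of the GINS complex that activates the helicase (chr8:120581266-120589075, GRCm38.p6), was close to 0 counts in restricted wild-type livers. Restricted wild-type livers had 0, 0, 0.0883 and 0 CPM, which were 2 counts in 4 libraries, against 1.49, 1.84, 1.12 and 0.993 CPM in fed wild-type livers, which were 108 counts. From the pooled counts the level was 60.3-fold lower, with a 95% counting interval of 16.3 to 504-fold that covers counting error only (fitted log2 change -5.54 ± 0.69, SE, adjusted p = 4.36e-06 by edgeR). Gins1, of the same complex, had a log2 change of -1.48 ± 0.47 (SE, adjusted p = 0.0372 by edgeR). E2f1, the activating E2F factor, was at 0.654, 0.758, 0.265 and 0.0606 CPM in restricted wild-type livers, against 2.35, 2.94, 2.2 and 1.65 CPM in fed wild-type livers. The 2 groups were apart, with a log2 change of -2.34 ± 0.41 (SE, adjusted p = 0.00039 by edgeR).

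Among the mitosis genes, Cdk1, the kinase that starts mitosis, was at 0.753, 0.866, 0.0442 and 0.91 CPM in restricted wild-type livers, against 4.86, 3.68, 2.32 and 0.993 CPM in fed wild-type livers (log2 change -2.24 ± 0.47, SE, adjusted p = 0.00251 by edgeR). Top2a, the topoisomerase that untangles sister chromatids, was at 0.654, 0.812, 0.133 and 1.15 CPM in restricted wild-type livers, against 2.98, 4.17, 2.44 and 1.57 CPM in fed wild-type livers (log2 change -2.06 ± 0.46, SE, adjusted p = 0.00376 by edgeR). Mki67, which encodes the proliferation antigen Ki-67, was at 0.393, 1.19, 0.795 and 1.15 CPM in restricted wild-type livers, against 2.39, 5.94, 2.56 and 2.98 CPM in fed wild-type livers (4.01-fold lower, with an SE of 0.447 on the log2 scale, adjusted p = 0.00406 by edgeR). For all 3 genes the groups did not overlap. The other 8 mitosis genes that fell had log2 changes from -3.61 (Ccnb2) to -1.52 (Aurka), and Ccna2, Aurkb, Kif11 and Stmn1 did not pass. Counts were low here: 24 of the 60 values of mitosis genes in restricted wild-type livers rested on under 3 counts. A fit to the libraries of the 2 groups alone called 9 of the 30 genes it tested, 4 of them replication and 4 mitosis genes. The calls of Mcm3, Mcm4, Gins1, Ccnb1, Aurka and Plk1 each ended when 1 library was left out, with adjusted p up to 0.228. The 12 macrophage markers summed to 302 to 459 CPM in restricted and 242 to 281 CPM in fed wild-type livers (2 of 12 rose, none at 0 in either group). The 10 erythroid markers summed to 675 to 1220 CPM in restricted and 1330 to 2070 CPM in fed wild-type livers (1 of 8 tested fell, none at 0 in either group). The 7 stellate cell markers summed to 309 to 604 CPM in restricted and 203 to 306 CPM in fed wild-type livers (3 of 7 rose, none at 0 in either group). The 8 markers of B and plasma cells summed to 2.62 to 30.8 CPM in restricted and 1.4 to 4.23 CPM in fed wild-type livers. Of the 3 tested, Igkc and Ighm rose; 2 of 8 were at 0 in restricted and none in fed livers. The part of these cell types in the result was not tested.

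In mutant mice, restriction lowered replication genes and left the mitosis genes without a call. In restricted against fed mutant livers of 16 weeks, 10 of 39 genes fell and none rose (at an unadjusted p under 0.05, 17 were lower and none higher by edgeR, and DESeq2 called 13). Over all genes tested, 11.6% changed, and 3108 of 12211 had an unadjusted p under 0.05. The 10 were 7 replication genes (Mcm2 to Mcm7 and Cdc6) and 3 G1/S control genes (E2f1, E2f8 and Ccne2). None of the 15 mitosis genes passed by edgeR or by DESeq2, and 1 had an unadjusted p under 0.05. The median log2 change was -1.29 over the replication genes and -0.27 over the mitosis genes, against 0.00186 over all genes tested.

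Mcm5 was at 1.51, 1.32, 2.55 and 1.11 CPM in restricted mutant livers, against 5.96, 11.4, 9.14 and 12.2 CPM in fed mutant livers (log2 change -2.54 ± 0.39, SE, adjusted p = 8.1e-05 by edgeR). Mcm6 was at 2.74, 3.59, 2.86 and 2.29 CPM in restricted mutant livers, against 9.77, 13.9, 14.2 and 17.2 CPM in fed mutant livers (log2 change -2.25 ± 0.39, SE, adjusted p = 0.000362 by edgeR). Mcm3 was at 2.46, 3.64, 3.57 and 3.82 CPM in restricted mutant livers, against 7.87, 11.7, 14 and 14.6 CPM in fed mutant livers. For these 3 ring subunits, and for Mcm2, Mcm4 and Mcm7, no restricted mutant liver reached the lowest fed one. The log2 change of Mcm3 was -1.84 ± 0.35 (SE, adjusted p = 0.000783 by edgeR). Mcm4 was at 3.35, 5.01, 7.66 and 4.79 CPM in restricted mutant livers, against 9.83, 13.3, 15.6 and 20.4 CPM in fed mutant livers (log2 change -1.50 ± 0.29, SE, adjusted p = 0.00095 by edgeR). Mcm2 was at 0.992, 2.93, 4.36 and 2.71 CPM in restricted mutant livers, against 6.28, 10.4, 9.79 and 14.3 CPM in fed mutant livers (log2 change -1.88 ± 0.38, SE, adjusted p = 0.00179 by edgeR). All 6 subunits of the ring thus fell together. Mcm7 fell least, by 0.87 on the log2 scale (adjusted p = 0.0143 by edgeR, and 0.052 without replicate 4 of the fed mutant livers).

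Cdc6, the loader of the ring, was at 0.0472, 0.0473, 0.136 and 0.0694 CPM in restricted mutant livers, against 0.507, 0.58, 1.53 and 1.61 CPM in fed mutant livers. The groups were apart although the restricted values rest on few counts, with a log2 change of -3.64 ± 0.93 (SE, adjusted p = 0.0105 by edgeR). E2f1 was at 0.567, 1.28, 1.05 and 0.833 CPM in restricted mutant livers, against 2.03, 2.95, 3.17 and 2.81 CPM in fed mutant livers (log2 change -1.54 ± 0.38, SE, adjusted p = 0.00795 by edgeR). The repressor E2f8 was at 0.189, 1.23, 1.29 and 0.694 CPM in restricted mutant livers, against 5.52, 3.16, 3.06 and 3.35 CPM in fed mutant livers (log2 change -2.09 ± 0.54, SE, adjusted p = 0.0128 by edgeR). Neither gene's groups overlapped. Ccne2 fell by 1.39 on the log2 scale (adjusted p = 0.0206 by edgeR), a call that ended without replicate 4 of the fed or without replicate 1, 2 or 4 of the restricted mutant livers, with adjusted p up to 0.0742.

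For 13 of 15 mitosis genes the restricted and fed mutant livers overlapped. The share of all genes that overlap was not counted, so this count does not show that the mitosis genes stayed unchanged. Mki67 was at 5.57, 3.59, 5.55 and 3.75 CPM in restricted mutant livers, against 4.12, 4.96, 2.02 and 3.08 CPM in fed mutant livers (log2 change 0.39 ± 0.40, SE, adjusted p = 0.594 by edgeR). Plk1, a kinase that matures spindle poles, was at 0.756, 1.89, 1.05 and 0.833 CPM in restricted mutant livers, against 0.317, 0.896, 0.492 and 0.223 CPM in fed mutant livers (log2 change 1.23 ± 0.61, SE, adjusted p = 0.21 by edgeR). Aurka and Ube2c were the 2 whose restricted livers all lay below the fed ones, with log2 changes of -0.95 ± 0.47 and -1.05 ± 0.51 (SE, adjusted p = 0.203 and 0.194 by edgeR). Macrophage markers summed to 480 to 612 CPM in restricted and 450 to 594 CPM in fed mutant livers, none at 0 in either group, and the lowest adjusted p among the 12 was 0.0607 by edgeR. Endothelial markers summed to 272 to 338 CPM in restricted and 241 to 311 CPM in fed mutant livers (Lyve1 and Pecam1 of 7 rose, none at 0). Erythroid markers summed to 684 to 1160 CPM in restricted and 687 to 1800 CPM in fed mutant livers (Alas2 of 8 tested fell, 1 of 10 at 0 in each group). Cholangiocyte markers summed to 14.6 to 60.9 CPM in restricted and 17.7 to 25.1 CPM in fed mutant livers (Krt19 of 5 tested rose, none at 0). Hepatocyte markers summed to 170000 to 209000 CPM in restricted and 113000 to 149000 CPM in fed mutant livers (3 of 8 rose and 2 fell, none at 0). The part of these cell types in the result was not tested.

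**Figure D3:**
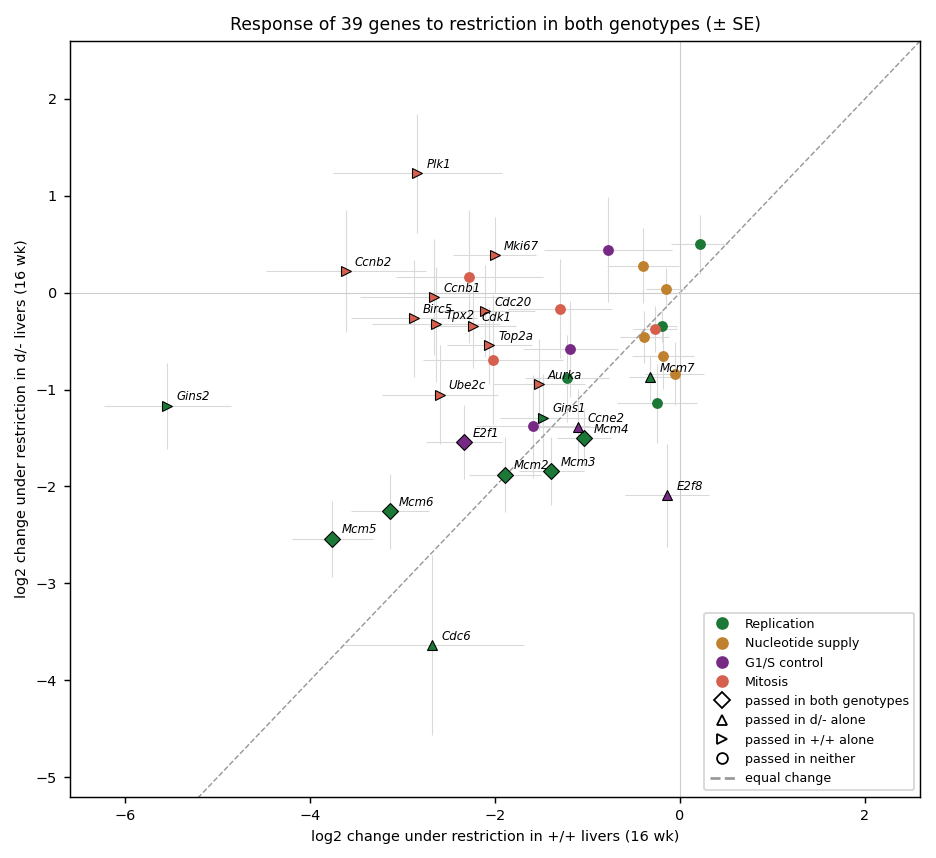
Fitted log2 change under restriction in wild-type (+/+) livers on the x axis and in mutant (d/-) livers on the y axis for 39 genes, with SE bars; colours are role classes, marker shapes say in which genotype a gene passed, and the dashed line marks equal change. Mcm2 to Mcm6 and E2f1 lie low on both axes, whereas most mitosis genes lie left of zero on the x axis and near 0 on the y axis; a gene that passed on 1 axis is not thereby shown to differ between the genotypes.

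Set side by side under restriction, the mutant livers had more footprints of mitosis genes than the wild-type livers. In restricted mutant against restricted wild-type livers, 14 of 39 genes rose and 1 fell (DESeq2 called 20), and over all genes tested 18.2% changed. The 14 were 9 of 15 mitosis genes, 3 of 13 replication genes (Mcm5, Mcm6 and Gins2) and 2 of 6 G1/S control genes (Ccnd1 and Ccne1), and the gene that fell was E2f8. The median log2 difference was 2.05 over the mitosis genes and 0.48 over the replication genes, against -0.00608 over all genes tested.

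Mki67 was at 5.57, 3.59, 5.55 and 3.75 CPM in restricted mutant livers, against 0.393, 1.19, 0.795 and 1.15 CPM in restricted wild-type livers (log2 difference 2.43 ± 0.44, SE, adjusted p = 0.000393 by edgeR). Top2a was at 1.8, 2.27, 4.46 and 3.06 CPM in restricted mutant livers, against 0.654, 0.812, 0.133 and 1.15 CPM in restricted wild-type livers (log2 difference 2.11 ± 0.45, SE, adjusted p = 0.00185 by edgeR). Plk1 was at 0.756, 1.89, 1.05 and 0.833 CPM in restricted mutant livers, against 0, 0.0541, 0.133 and 0 CPM in restricted wild-type livers (fitted log2 difference 4.45 ± 0.83, SE, adjusted p = 0.000445 by edgeR). The groups did not overlap for any of the 3. Ccnb1, Ccnb2, Cdk1, Cdc20, Tpx2 and Ube2c rose with log2 differences from 1.78 (Cdk1) to 3.59 (Ccnb2), and the remaining 6 mitosis genes lay between 0.43 (Stmn1) and 2.19 (Ccna2) without passing. Under 3 counts lay behind 1 of 60 values of mitosis genes in restricted mutant livers, against 24 of 60 in restricted wild-type livers. A fit to the libraries of the 2 groups alone called 11 genes, 5 of them mitosis genes. Cdk1 and Ube2c did not pass in it (adjusted p = 0.0721 and 0.0573 by edgeR).

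Gins2 was at 0.709, 0.756, 0.51 and 0.625 CPM in restricted mutant livers, against 0, 0, 0.0883 and 0 CPM in restricted wild-type livers. From 55 against 2 counts the level was 28.2-fold higher, with a 95% counting interval of 7.43 to 238-fold that covers counting error only (adjusted p = 0.000104 by edgeR). Mcm5 was at 1.51, 1.32, 2.55 and 1.11 CPM in restricted mutant livers, against 0.524, 0.433, 0.839 and 0.425 CPM in restricted wild-type livers (log2 difference 1.55 ± 0.46, SE, adjusted p = 0.0196 by edgeR). That call ended without replicate 3 of the mutant livers (adjusted p = 0.0894 by edgeR) and without replicate 2 or 4 of the wild-type livers (0.0501 and 0.0538). Those of Mcm6 and Tpx2 ended without any 1 of 5 libraries, with adjusted p up to 0.0933 and 0.105.

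Cyclin D1, which starts the G1 program (Ccnd1, chr7:144929931-144939831, GRCm38.p6), was at 20.8, 54.2, 97.9 and 59.8 CPM in restricted mutant livers, against 8.38, 4, 8.3 and 19.4 CPM in restricted wild-type livers. The lowest mutant liver lay just above the highest wild-type one, and the log2 difference was 2.55 ± 0.53 (SE, adjusted p = 0.00225 by edgeR). Cyclin E1 (Ccne1) was at 2.98, 3.83, 2.01 and 1.39 CPM in restricted mutant livers, against 0.524, 0.758, 0.133 and 0 CPM in restricted wild-type livers (log2 difference 2.79 ± 0.63, SE, adjusted p = 0.00322 by edgeR). E2f8 ran the other way, at 0.189, 1.23, 1.29 and 0.694 CPM in restricted mutant livers, against 5.37, 18.5, 5.26 and 2.73 CPM in restricted wild-type livers (log2 difference -3.17 ± 0.53, SE, adjusted p = 0.000244 by edgeR). Macrophage markers summed to 480 to 612 CPM in restricted mutant and 302 to 459 CPM in restricted wild-type livers, with 5 of 12 higher and none at 0 in either group. Their part in these differences was not tested. T and NK cell markers summed to 0.803 to 2.42 CPM in restricted mutant and 0.524 to 1.39 CPM in restricted wild-type livers, with 1 of 10 tested, which did not pass, and none at 0 in either group.

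Whether restriction acted differently in the genotypes was tested on the difference of the 2 responses, with the response of wild types subtracted from that of mutants. Of the 39 genes, 1 passed, Gins2, with a difference of 4.38 ± 0.86 on the log2 scale (SE, adjusted p = 0.0103 by edgeR), and over all genes tested 0.803% passed. Gins2 changed by -1.17 ± 0.44 under restriction in mutants (SE, adjusted p = 0.0906 by edgeR), against -5.54 in wild types, and the size of the fitted wild-type value depends on the 2 counts in restricted wild-type livers. The mitosis genes had positive differences for 14 of 15, with a median of 1.92 against -0.0191 over all genes tested. None of the 15 passed by edgeR, and DESeq2 called 3 (Mki67, Plk1 and Ccnb2). At an unadjusted p under 0.05 there were 10 of the 15, against 1552 of all 12211 genes tested. The lowest adjusted p among the mitosis genes by edgeR was 0.0543, for Mki67 (difference 2.39 ± 0.60, SE). It was followed by 0.0749 for Plk1 (4.07 ± 1.10, SE) and 0.0899 for Ccnb2 (3.84 ± 1.08, SE). Mki67 passed in a fit to the 4 compared groups alone (adjusted p = 0.042 by edgeR). It also passed without replicate 2 of the fed mutant livers (adjusted p = 0.0499) or without replicate 2 of the restricted wild-type livers (0.0415), and Plk1 without replicate 3 of the fed wild-type livers (0.0406). The differences of the Mcm ring ran from -0.55 (Mcm7) to 1.22 (Mcm5), and none passed.

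**Figure D4:**
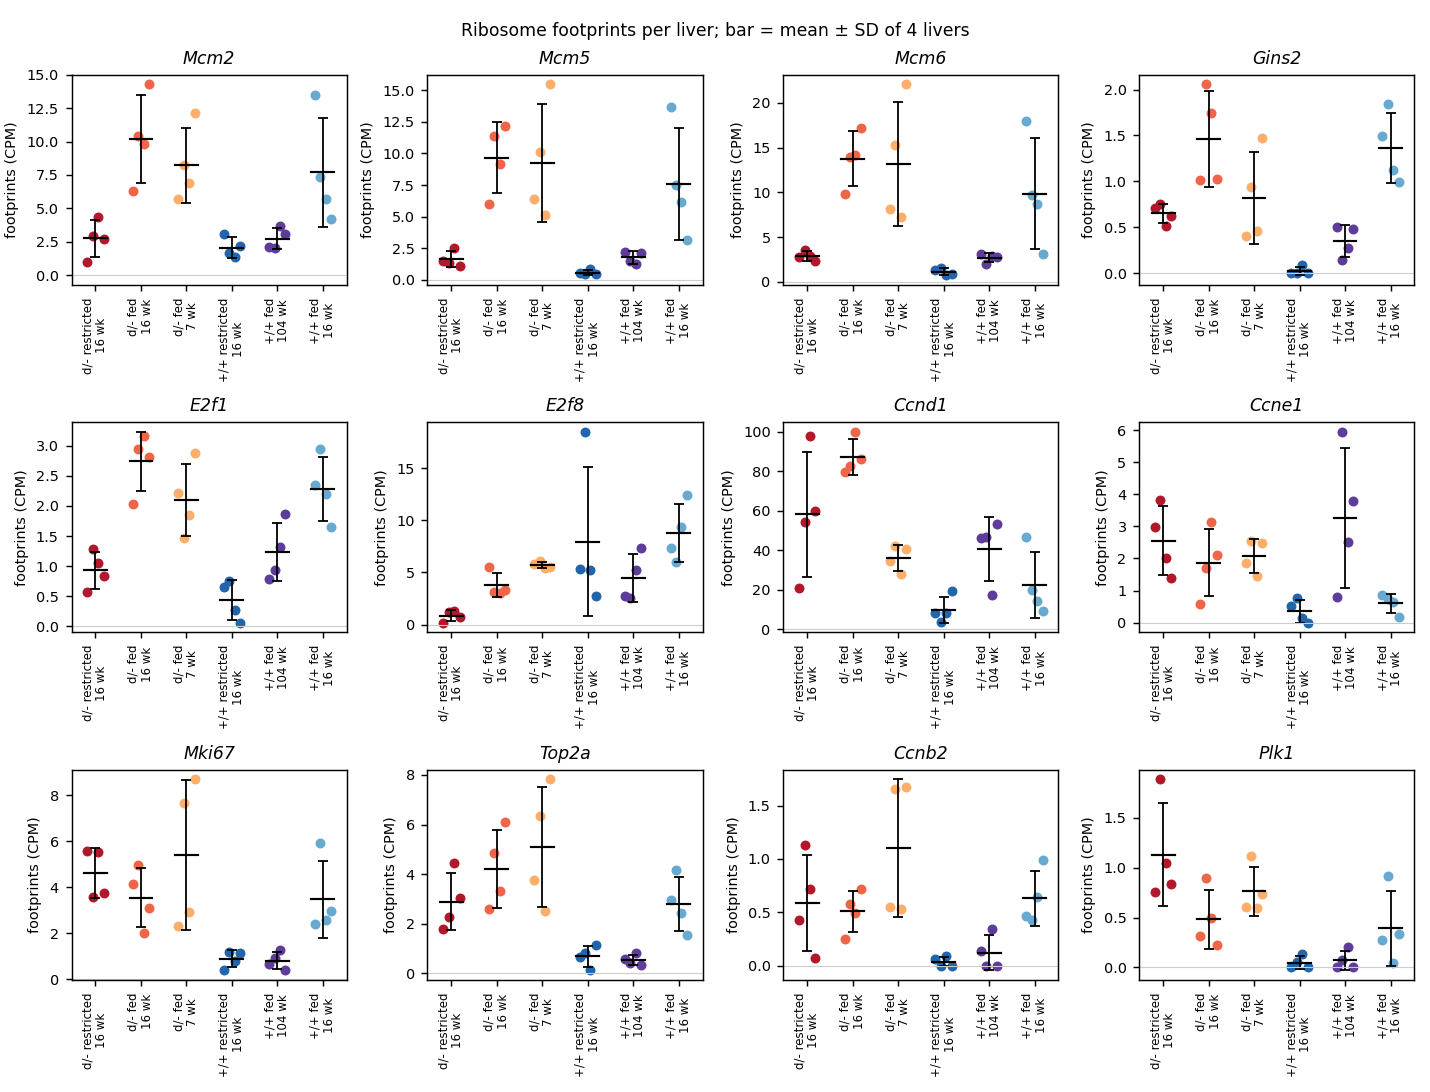
Footprints in CPM of 12 of the genes in every liver, with the 6 groups on the x axis; points are livers, and bars the mean ± SD of 4 livers. Mcm2, Mcm5 and Mcm6 are low in both restricted groups and in 104-week wild-type (+/+) livers. Mki67, Top2a and Plk1 are low in restricted and 104-week wild-type livers but not in restricted mutant (d/-) livers.

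Between fed genotypes at 16 weeks few genes differed. In fed mutant against fed wild-type livers, 2 of 39 genes rose and none fell (9 had an unadjusted p under 0.05 by edgeR, 8 of them higher, and DESeq2 called 5), while 10.7% of all genes tested changed. At that unadjusted limit 2964 of all 12211 genes tested passed, a share near that of the 9 of 39. Ccnd1 was at 79.6, 82.5, 100 and 86.4 CPM in fed mutant livers, against 46.6, 19.8, 14.4 and 9.19 CPM in fed wild-type livers. Every mutant liver lay above every wild-type one, and the log2 difference was 1.94 ± 0.51 (SE, adjusted p = 0.0188 by edgeR). Cdt1, the loader of the ring that geminin blocks, was at 1.97, 3.06, 4.43 and 6.43 CPM in fed mutant livers, against 2.19, 1.53, 1.08 and 1.32 CPM in fed wild-type livers, with groups that overlapped (log2 difference 1.37 ± 0.41, SE, adjusted p = 0.0323 by edgeR). The call of Ccnd1 ended without replicate 2, 3 or 4 of the wild-type livers (adjusted p = 0.0529, 0.0627 and 0.0615), and that of Cdt1 without those same livers or replicate 3 or 4 of the mutant livers (adjusted p from 0.0664 to 0.146). Without replicate 1 of the wild-type livers, the one with generally high levels, 6 genes passed.

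The other replication genes did not pass by edgeR. Differences were positive for all 13, from 0.10 (Gins2) to 1.37 (Cdt1), with a median of 0.39 against 0.00665 over all genes tested. DESeq2 called Mcm3 and Mcm4 (adjusted p = 0.049 and 0.0325), and Mcm4 also passed by edgeR with total counts alone (0.0479). E2f8 was at 5.52, 3.16, 3.06 and 3.35 CPM in fed mutant livers, against 7.36, 6, 9.32 and 12.4 CPM in fed wild-type livers; its groups did not overlap and it did not pass (log2 difference -1.22 ± 0.47, SE, adjusted p = 0.104 by edgeR). The 15 mitosis genes had a median difference of 0.08 and none passed by edgeR or DESeq2 (1 at an unadjusted p under 0.05). Macrophage markers, in contrast, rose for 12 of 12, with sums of 450 to 594 CPM in fed mutant and 242 to 281 CPM in fed wild-type livers and none at 0. Stellate cell markers summed to 339 to 453 CPM in fed mutant and 203 to 306 CPM in fed wild-type livers (Lum, Dcn and Lrat of 7 rose, none at 0). Neutrophil markers summed to 2.84 to 7.59 CPM in fed mutant and 2.19 to 5.96 CPM in fed wild-type livers. Of the 3 tested, S100a9 and S100a8 rose and Ly6g fell; 1 of 9 was at 0 in mutant and none in wild-type livers. Markers of B and plasma cells summed to 5.14 to 14.2 CPM in fed mutant and 1.4 to 4.23 CPM in fed wild-type livers (Igkc of 3 tested rose, none at 0). Hepatocyte markers summed to 113000 to 149000 CPM in fed mutant and 158000 to 170000 CPM in fed wild-type livers (Cyp3a11, Ttr and Apob of 8 fell, none at 0). Endothelial markers summed to 241 to 311 CPM in fed mutant and 236 to 265 CPM in fed wild-type livers (Vwf of 7 rose, none at 0). The part of these cell types in the changes of Ccnd1 and Cdt1 was not tested.

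Between 16 and 7 weeks in fed mutant livers none of the 39 genes passed by edgeR or DESeq2 (2 at an unadjusted p under 0.05), and 0.434% of all genes tested did. At that unadjusted limit 1168 of all 12211 genes tested passed. All 13 replication genes had positive log2 differences (16 minus 7 weeks, median 0.14) and 14 of 15 mitosis genes negative ones (median -0.60), against 0.00777 over all genes tested. Ccnd1 was at 79.6, 82.5, 100 and 86.4 CPM at 16 weeks, against 34.5, 42.3, 27.8 and 40.6 CPM at 7 weeks, groups that did not overlap (log2 difference 1.26 ± 0.50, SE, adjusted p = 0.392 by edgeR). In a fit to the 2 groups alone it was the 1 gene that passed. Cyclin A2 (Ccna2), at work from S phase into mitosis, was at 0.507, 0.58, 0.602 and 0.268 CPM at 16 weeks, against 0.702, 1.88, 0.595 and 1.87 CPM at 7 weeks (log2 difference -1.36 ± 0.66, SE, adjusted p = 0.516 by edgeR).

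Old wild-type livers had fewer footprints of mitosis genes than young ones. In fed wild-type livers of 104 against 16 weeks, 12 of 39 genes fell and 1 rose. DESeq2 called 20, and a fit to the libraries of the 2 groups alone called 10. Over all genes tested 9.34% changed. The 12 were 8 of 15 mitosis genes (Mki67, Top2a, Ccnb1, Cdk1, Aurka, Ube2c, Kif11 and Stmn1) and 4 of 13 replication genes (Mcm2, Mcm5, Mcm6 and Gins2). All 15 mitosis genes had negative differences and an unadjusted p under 0.05, with a median of -2.09, and the replication genes had a median of -0.54, against 0.0149 over all genes tested. At that unadjusted limit 2838 of all 12211 genes tested passed. The gene that rose was Ccne1.

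Mcm5 was at 2.21, 1.45, 1.25 and 2.14 CPM at 104 weeks, against 13.7, 7.47, 6.16 and 3.14 CPM at 16 weeks (log2 difference -2.12 ± 0.40, SE, adjusted p = 0.00122 by edgeR). Mcm6 was at 3.06, 1.96, 2.91 and 2.76 CPM at 104 weeks, against 18, 9.68, 8.72 and 3.06 CPM at 16 weeks (log2 difference -1.90 ± 0.40, SE, adjusted p = 0.00359 by edgeR). The old livers were alike for both genes and the young ones spread widely. Top2a was at 0.57, 0.435, 0.832 and 0.345 CPM at 104 weeks, against 2.98, 4.17, 2.44 and 1.57 CPM at 16 weeks (log2 difference -2.35 ± 0.49, SE, adjusted p = 0.00306 by edgeR). Mki67 was at 0.641, 0.943, 1.25 and 0.414 CPM at 104 weeks, against 2.39, 5.94, 2.56 and 2.98 CPM at 16 weeks (log2 difference -2.07 ± 0.47, SE, adjusted p = 0.00575 by edgeR). Aurka, a spindle kinase, was at 0.285, 0.145, 0.277 and 0.276 CPM at 104 weeks, against 2, 1.65, 1.68 and 0.579 CPM at 16 weeks (log2 difference -2.59 ± 0.58, SE, adjusted p = 0.00543 by edgeR). None of these 3 mitosis genes had overlapping groups.

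Stathmin (Stmn1), which destabilises microtubules, was at 2.92, 2.68, 3.74 and 2 CPM at 104 weeks, against 7.79, 5.39, 7.32 and 4.55 CPM at 16 weeks, a smaller but tighter difference (log2 -1.15 ± 0.25, SE, adjusted p = 0.00438 by edgeR). Cdk1 was at 1.28, 0.363, 0.902 and 0.622 CPM at 104 weeks, against 4.86, 3.68, 2.32 and 0.993 CPM at 16 weeks (log2 -1.92 ± 0.48, SE, adjusted p = 0.0121 by edgeR, and 0.0593 without replicate 1 of the young livers). Ccne1 was at 0.784, 5.95, 2.5 and 3.8 CPM at 104 weeks, against 0.862, 0.735, 0.64 and 0.165 CPM at 16 weeks (log2 2.36 ± 0.60, SE, adjusted p = 0.0148 by edgeR, and 0.0611 without replicate 2 of the old livers). In 3 of the 4 old livers Ccne1 was above every young liver. Without replicate 2 of the old or replicate 1 of the young livers, 8 genes passed in all. The calls of Mcm2, Ccnb1, Kif11 and Ube2c ended without one or another of 3 or more libraries, with adjusted p up to 0.15. Under 3 counts lay behind 25 of 60 values of mitosis genes in old livers, against 2 of 60 in young ones. B and plasma cell markers summed to 34.9 to 83.4 CPM at 104 weeks, against 1.4 to 4.23 CPM at 16 weeks (3 of 3 tested rose, of 8 in the list, none at 0). Macrophage markers summed to 370 to 501 CPM, against 242 to 281 CPM (9 of 12 rose, none at 0). Their part in the changes was not tested.

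**Figure D5:**
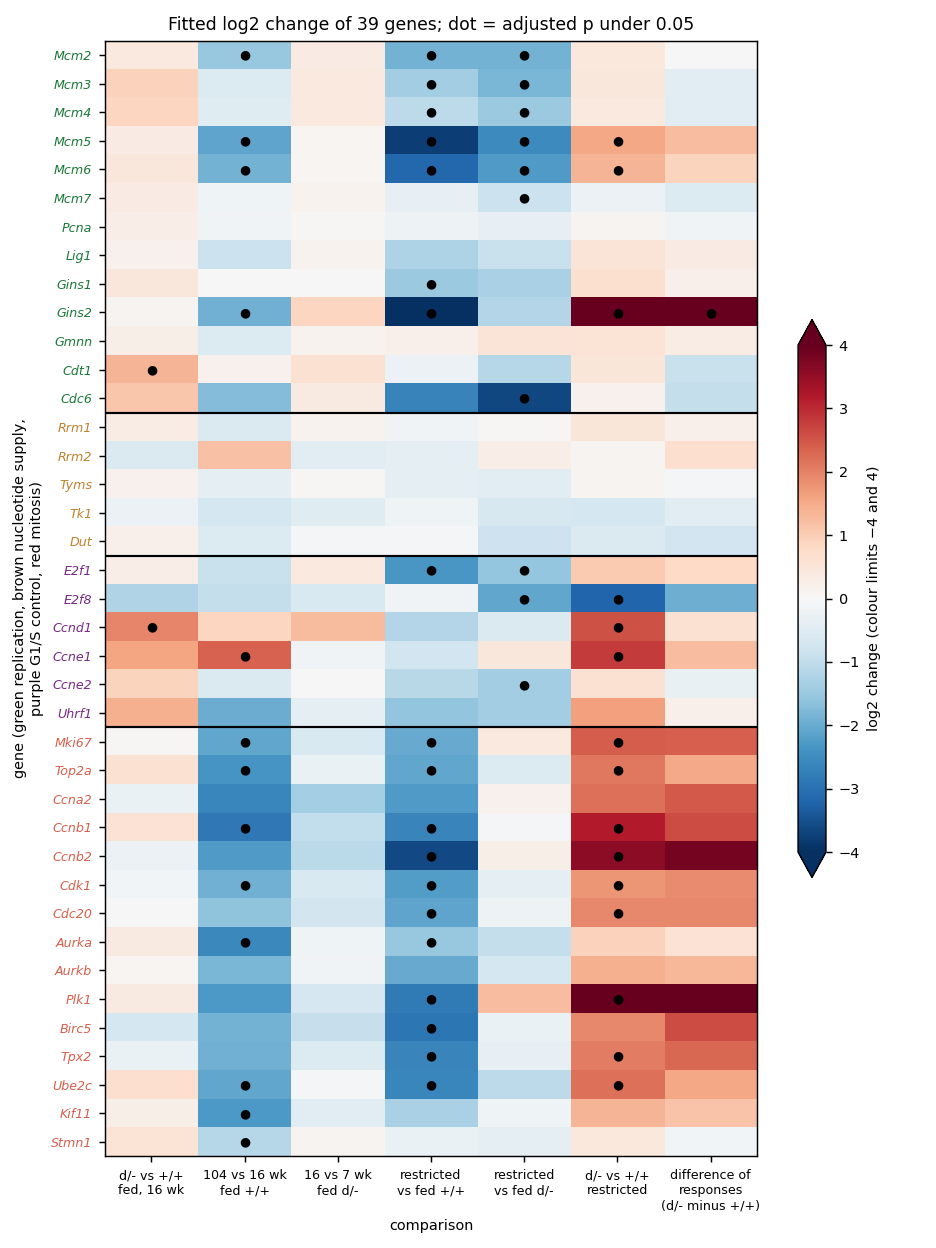
Fitted log2 change of the 39 tested genes (lines, grouped by role) in each of the 7 comparisons (columns), with red for higher and blue for lower and a dot where the adjusted p is under 0.05. The mitosis block carries 11 dots in the restricted against fed wild-type column and none in the restricted against fed mutant column, while the replication block carries 7 dots in both.

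The genes of nucleotide supply made no calls in the main fit. None of the 5 passed by edgeR in any of the 7 comparisons. Over all genes tested 0.434% to 18.2% changed, so 0 of 5 lies near that share. At an unadjusted p under 0.05 there were 2 in old against young wild-type livers (2838 of all 12211 genes tested). There was 1 in restricted against fed mutant livers (3108), 1 in restricted mutant against restricted wild-type livers (3893) and 0 in the other 4 comparisons. DESeq2 called 1 (Rrm2, old against young). With 1 library left out, Rrm1, Tk1 and Rrm2 passed in old against young livers (adjusted p = 0.0368, 0.0228 and 0.0256 by edgeR). Dut did so in restricted against fed mutant livers (0.0133). In restricted against fed wild-type livers, where 19 members of the other classes fell, their log2 changes ran from -0.40 (Rrm2) to -0.06 (Dut). Rrm1, the large subunit of ribonucleotide reductase, was at 19.8, 16.8, 14 and 14.6 CPM in restricted wild-type livers, against 27.6, 15.9, 17 and 11.8 CPM in fed wild-type livers. Rrm2, its small subunit, was at 64.2, 23.9, 20.1 and 15.3 CPM in wild-type livers of 104 weeks, against 18.6, 13.9, 12.6 and 10 CPM in those of 16 weeks (log2 difference 1.16 ± 0.39, SE, adjusted p = 0.0629 by edgeR). Replicate 1 of the old livers had the highest Rrm2 level of all 24 libraries. Pcna, the sliding clamp, Lig1, the ligase, and geminin likewise passed in no comparison in the main edgeR fit. Nor did Uhrf1, which keeps DNA methylation through replication, Aurkb and Ccna2. DESeq2 called Uhrf1 in restricted and in old against fed young wild-type livers (adjusted p = 0.0496 and 0.0268) and in restricted mutant against restricted wild-type livers (adjusted p = 0.0297). It called Ccna2 in the same comparisons (adjusted p = 0.0215, 0.0289 and 0.0193). E2f7, which was not tested, ranged from 0 to 0.832 CPM.

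Further genes of the same machinery were counted in the same way. They were listed by role, but with earlier results of these data known. They were read in the same livers, so their counts are not an independent check of the results above. Of 48 other replication genes tested, 12 fell in restricted against fed wild-type livers, with Pole, Gins4 and Chaf1a leading (log2 changes -2.05, -0.90 and -2.33), and 11 fell in restricted against fed mutant livers, with Fen1, Rpa1 and Chaf1a leading (-1.83, -0.85 and -2.14). None rose in either comparison. Of 40 other mitosis genes tested, 14 fell in restricted against fed wild-type livers, led by Ckap2, Tacc3 and Ccnf (-4.17, -2.62 and -1.37), and 3 fell in restricted against fed mutant livers (Ccnf, Cks1b and Smc2, at -1.38, -2.04 and -1.17). Restricted mutant against restricted wild-type livers had 9 of these 40 higher and none lower, led by Ckap2, Kif20a and Kif22 (4.17, 2.86 and 3.08). They had 2 of the 48 replication genes higher (Pole and Chaf1b) and 1 lower (Rpa3). Old wild-type livers had 11 of the 40 lower and 5 of the 48 lower, and none higher. Over all genes tested, 12.1% changed in restricted against fed wild-type and 11.6% in restricted against fed mutant livers. The shares were 18.2% between the restricted genotypes and 9.34% in old against young wild-type livers. Near or below these shares lie the 3 of 40 in mutants, the 2 and 1 of 48 between restricted genotypes and the 5 of 48 in old livers. In the test of the difference between the 2 genotypes' responses to restriction, the lowest adjusted p by edgeR was 0.144 among the 40 and 0.123 among the 48.

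Calls among 10 tested cyclin-dependent kinase brakes and pocket proteins and 17 other G1 regulators together lay near or below the share over all genes. In fed mutant against fed wild-type livers 1 of 10 and 2 of 17 rose (10.7% of all genes changed). In restricted against fed mutant livers 1 of 10 rose and 1 fell, and 1 of 17 fell (11.6%). In restricted against fed wild-type livers 1 of 10 rose and 1 of 17 fell (12.1%). In old against young wild-type livers 1 of each list rose (9.34%), and between the restricted genotypes 2 of 17 rose (18.2%). The p53 target Ccng1 rose in fed mutant against fed wild-type livers (log2 1.06, adjusted p = 0.0175 by edgeR) and fell by 1.00 on the log2 scale in restricted against fed mutant livers (adjusted p = 0.022). Cdkn1c, which encodes the inhibitor p57, rose in restricted against fed mutant livers (log2 1.53, adjusted p = 0.00123), and Cdkn2c, which encodes p18, in restricted against fed wild-type livers (log2 1.69, adjusted p = 0.0199). Btg2, an antiproliferative gene, was at 60.2 ± 104 CPM in old and 2.44 ± 0.622 CPM in young wild-type livers (SD, n = 4 each, adjusted p = 0.00585 by edgeR), a spread that exceeds the mean in the old group. Cdk6, a partner of cyclin D, fell in restricted against fed wild-type livers (log2 -1.10) and was higher in restricted mutant than in restricted wild-type livers (log2 1.15), as was E2f3 (log2 1.57).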

How the data were processed

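Ribosome footprints of 24 mouse livers in 6 groups of 4 were analysed from the gene count table the authors deposited, which holds raw counts per gene. Per the submitters' processing notes, Trimmomatic 0.39, cutadapt 3.4, Bowtie2 2.4.2, STAR 2.7.0f and 2.7.8a, featureCounts, Subread 1.6.4 and GRCm38.p6 were used; their roles, the strand setting and the treatment of reads that map to several places could not be read from those notes, so overlapping and near-identical genes are uncertain. Table columns were assigned to libraries by their labels, and 13 genes had no symbol. A second table, of open reading frames by transcript, was not used.

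Counts were normalised by TMM and filtered by expression over the 6 groups (filterByExpr, minimum count 10, minimum total 15), and tested by edgeR 4.0.16's quasi-likelihood test (R 4.3.3) on all 24 libraries, with 18 residual degrees of freedom. P-values were adjusted by Benjamini-Hochberg over all 12211 genes tested in each of 7 comparisons, with a threshold of 0.05. CPM values use the normalised library size, SE is the log2 change over the root of the test's F, and counting intervals are 95% exact intervals. No library was left out or imputed, and no pair was identical. The script was tested on simulated counts.

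Values by liver are given, per comparison, for up to 8 called genes with the lowest adjusted p, with at least 2 per role class where called, and for genes without a call that a class or an overlap turns on, which were picked after their values were seen. Other lists are named by up to 3 called genes with the lowest adjusted p, or all where the count is small. The members and lists were chosen with earlier results of these data known. Alternatives were RLE size factors, total counts alone, no filter, DESeq2 1.42.0, the compared groups alone, a block for the replicate number and leaving out each library. Promoters come from the RefSeq table for GRCm38.p6; motif counts carry no test.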

Additional observations from a re-analysis of the deposited data

Results flagged for a closer look

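In 240 groups of 4 livers (40 genes in 6 groups), 9 had 1 liver farther from the nearest other than Dixon's critical value allows, and chance flags about 5% of groups. In old wild-type livers, Aurka was at 0.145 CPM in replicate 2 (0.276 to 0.285 in the others) and Ube2c at 0.356 CPM in replicate 1 (0.138 to 0.145). In restricted wild-type livers, Ccna2 was at 0.327 CPM in replicate 1 (0 to 0.0442 in the others), E2f7 at 0.0541 CPM in replicate 2 (0), Gins2 at 0.0883 CPM in replicate 3 (0) and E2f8 at 18.5 CPM in replicate 2 (2.73 to 5.37). In fed wild-type livers of 16 weeks, Cdc6 was at 1.45 CPM in replicate 1 (0 to 0.24 in the others) and Mki67 at 5.94 CPM in replicate 2 (2.39 to 2.98). In fed mutant livers of 16 weeks, E2f8 was at 5.52 CPM in replicate 1 (3.06 to 3.35 in the others).

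The response of Gins2 to restriction differed between the genotypes in the test of that difference, by 4.38 on the log2 scale (mutant minus wild-type, adjusted p = 0.0103 by edgeR).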

How the results depend on the processing

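In fed mutant against fed wild-type livers, where 2 of the 39 genes passed, DESeq2 called 5, the replicate block 1, and a fit to the compared groups alone 5. In old against young wild-type livers, where 13 passed, DESeq2 called 20 and the compared groups alone gave 10, 5 of them mitosis genes. Between 16 and 7 weeks in fed mutants, where 0 passed, the compared groups alone gave 1. In restricted against fed wild-type livers, where 19 passed, the compared groups alone gave 9 of 30 genes tested. In the difference between the responses, where 1 passed, DESeq2 called 4, the replicate block 2 (with Mki67 at adjusted p = 0.0349) and the compared groups alone 2. Leaving out 1 library at a time gave 0 to 6 in fed mutant against fed wild-type, 8 to 15 in old against young, 0 to 0 in 16 against 7 weeks, 13 to 20 in restricted against fed wild-type, 8 to 12 in restricted against fed mutant, 13 to 18 in restricted mutant against restricted wild-type livers and 1 to 2 in the difference between responses. Of 60 calls of single genes, 38 passed under every alternative run, 22 were lost under at least 1, and 0 changed direction; the cause was not tested. Class medians moved beyond their spread in 4 of 424 alternatives. Replicate numbers were not used to pair the samples in the main fit. Same-numbered livers of different groups had correlations of -0.186 to 0.25, over 0.1 in 4, 2, 2 and 2 of 15 pairs. Differently numbered livers of different groups had -0.221 to 0.296, over 0.1 in 11 of 180 pairs, a smaller share. Of 24 libraries, 10 correlated best with their own number. An effect shared by same-numbered livers was not tested. Scaling by total counts alone moved the median of all genes to 0.11 in fed mutant against fed wild-type, 0.114 in 16 against 7 weeks and 0.108 in restricted mutant against restricted wild-type livers. Depth limits the mitosis genes most, with 24 of 60 values in restricted and 25 of 60 in old wild-type livers under 3 counts.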

Other observations

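Replication-dependent histone genes, whose mRNAs are normally made in S phase, were also counted. In restricted mutant against restricted wild-type livers, 39 of 62 tested histone genes fell and 0 rose (lowest adjusted p = 1.75e-06 by edgeR), with a median log2 difference of -1.05, while 9 of 15 mitosis genes rose; over all genes tested 18.2% changed. Their summed level was 849 to 1200 CPM in restricted mutant and 1440 to 2520 CPM in restricted wild-type livers. In restricted against fed livers, 14 of 62 fell in mutants (11.6% of all genes changed) and 6 of 62 rose in wild types (12.1%). In fed mutant against fed wild-type livers 12 of 62 fell (10.7% of all genes changed), and in old against young wild-type livers 6 of 62 fell (9.34%). The counts of 6 of 62 lie near the share over all genes. Many of these genes are near-identical copies, and their counts are uncertain one by one. H2ac18 and H2ac19 both had means of 90.4 CPM in restricted and 64.8 CPM in fed wild-type livers. Whether reads were counted for more than 1 copy is not known, so the 62 genes may not be 62 separate measurements. The summed levels may likewise hold some reads more than once.

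Further markers of other cell types also differed between groups. Summed neutrophil markers were at 5.87 to 10.5 CPM in old and 2.19 to 5.96 CPM in young wild-type livers, with 2 of 3 tested higher. Summed cholangiocyte markers were at 14.6 to 60.9 CPM in restricted mutant and 13.6 to 24.1 CPM in restricted wild-type livers, with 1 of 5 tested higher (Krt19). Among 7 endothelial markers, 2 were higher and 1 lower in restricted mutant than in restricted wild-type livers, with sums of 272 to 338 CPM and 255 to 417 CPM. The part of these cell types in the changes of the replication and cell cycle genes was not tested.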
